A study of Mus musculus with 6 samples.

Results

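Fibronectin, 6 integrin subunits and 3 cytoplasmic partners of integrins are described here in spinal cord endothelial cells (ECs) of mice with and without endothelial TDP-43. The 10 genes (*Fn1*, *Itga5*, *Itgb1*, *Itgav*, *Itgb3*, *Itga1*, *Itga6*, *Ilk*, *Ptk2* and *Tln1*) were chosen by name, with earlier results of these data known. They stand for the fibronectin ligand, its receptors and the adhesion machinery behind them. Each gene matched 1 of the 56748 gene rows of the count table. RNA-Seq was performed at P16 on sorted spinal cord ECs, with 3 libraries per group. The labels and methods do not state whether each library came from 1 mouse or from pooled mice. Each library is called a mouse below. Control mice carried the floxed *Tardbp* gene without Cre (*Tardbp*flox). TDP-43iΔEC mice carried the same floxed gene together with *Cdh5*(PAC)-CreERT2, a tamoxifen-inducible Cre driven by the promoter of the EC cadherin gene. Both groups received tamoxifen (1 mg/mL) daily from P5 to P7. The control mice therefore share the tamoxifen and the floxed allele, but not the Cre. The study also stained fibronectin protein in retinas at P7, after earlier tamoxifen, and in lung ECs treated in culture to delete the gene. In both, it reported a sparse and disorganized fibronectin matrix with irregular aggregates when TDP-43 was lost. The libraries described here are of another tissue and hold RNA only, so protein amount and matrix assembly were not measured. The deposited counts are per gene, so the splice forms of fibronectin could not be read from them.

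Fibronectin is a secreted glycoprotein that cells assemble into fibrils around vessels. Integrins are receptors made of 1 α and 1 β chain: α5β1 and the αv integrins bind fibronectin, α1β1 binds collagens and α6β1 binds laminins. On ligand binding, talin (*Tln1*) connects the β tail to actin, while integrin-linked kinase (ILK) and focal adhesion kinase (FAK, the product of *Ptk2*) assemble the signaling complex of the focal adhesion. TDP-43, the product of *Tardbp*, is an RNA-binding protein that prefers stretches of repeated UG.

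Because of that preference, the genes were searched for unbroken TG runs, the DNA form of UG repeats. A run was TG repeated at least 10 times, without overlap, between the first and the last base of the gene in GRCm39. It was read on the strand of the gene, which has the sequence of the RNA. Of the 10 genes, 7 held at least 1 run, against 62.3% of the 11334 tested protein-coding genes. *Ptk2* held 11 runs, *Itgb3* 9, *Itga1* and *Itga6* 8 each, *Itgav* 5, and *Fn1* and *Itgb1* 1 each, whereas *Itga5*, *Ilk* and *Tln1* held none of these letters at that length. The genes differ in length, from 6.40 kb for *Ilk* to 218 kb for *Ptk2*. Per 100 kb, *Itgb3* had 14.4 runs, *Itga6* 7.03, *Itgav* 6.03, *Itga1* 5.37, *Ptk2* 5.04, *Itgb1* 2.05 and *Fn1* 1.48. Over all tested protein-coding genes, there were 5.85 per 100 kb. All runs were intronic except 1 of 22 repeats in an exon of *Itgb3* (chr11:104560333-104560376). A run is a description of the sequence, and binding was not measured. The only run of *Fn1* and the longest runs of *Itga1* and *Ptk2* are shown, since these are the ligand and the 2 genes whose groups did not overlap below. All 3 are intronic, and capitals mark the TG run within 20 flanking bases on each side, written 5′ to 3′ on the strand of the gene. The *Fn1* sequence lies at chr1:71689469-71689536 on the minus strand, that of *Itga1* at chr13:115151814-115151923 on the minus strand and that of *Ptk2* at chr15:73152213-73152302 on the minus strand.
Fn1: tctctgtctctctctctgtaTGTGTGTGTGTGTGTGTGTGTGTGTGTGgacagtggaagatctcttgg
Itga1: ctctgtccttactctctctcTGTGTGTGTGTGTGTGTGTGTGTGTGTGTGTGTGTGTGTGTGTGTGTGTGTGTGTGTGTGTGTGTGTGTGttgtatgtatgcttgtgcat
Ptk2: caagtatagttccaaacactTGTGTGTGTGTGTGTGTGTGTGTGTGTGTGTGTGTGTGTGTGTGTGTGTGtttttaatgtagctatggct
The run of *Fn1* has 14 repeats, compared with 35 in *Itga1* and 25 in *Ptk2*.

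Total counts per library ranged from 44041329 to 47270654 in control and from 25704871 to 45010088 in TDP-43iΔEC mice, and 3 counts, taken as the limit of detection, stood for 0.0635 to 0.117 CPM (counts scaled to the library total). *Tardbp*, the targeted gene, was at 1973, 2282 and 2069 normalized counts (counts divided by the size factor of the library) in control and at 982, 599.9 and 433 in TDP-43iΔEC mice (log2 fold change −1.62, SE 0.41, limma adjusted p = 0.287, DESeq2 adjusted p = 0.0221), and 33.1% of its exon length overlaps *Masp2* on the other strand. Its levels were lower in all 3 TDP-43iΔEC mice than in any control mouse, the direction that the labels give. The 5 EC markers summed to 8948 to 12721 CPM in control and 8997 to 11421 CPM in TDP-43iΔEC mice, and 2 of them, *Flt1* among these, were lower in all TDP-43iΔEC mice than in any control mouse in normalized counts. Mural cell markers overlapped as well, at 483 to 822 against 393 to 1022 CPM. Sums that did not overlap were those of the 5 astrocyte markers, at 211 to 249 against 139 to 193 CPM, and of the 5 red blood cell markers, at 6336 to 9759 against 2197 to 2909 CPM. The astrocyte sum was mostly *Gja1* (mean level 49.0 per kb, against 5.37 for *Gfap* and less for the other markers), and only 1 of the 5 markers was lower without overlap. *Aqp4* was at 0 in all TDP-43iΔEC mice and in control mouse 2, while *Gfap* was highest in TDP-43iΔEC mouse 1. The part of these differences in the results below was not tested. Across all genes, 18 of the 13107 tested passed an adjusted p of 0.05 (limma, adjusted over all tested genes), 4 higher and 14 lower in TDP-43iΔEC mice, and 4 of the 14 were red blood cell markers.

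Compared per length, *Fn1* and *Itgb1* were the most abundant of the 10 transcripts. The level of each gene was calculated as counts per kb of exon, scaled to the same total of such values in every library (the sum used in CPM). *Fn1* averaged 457 ± 64.2 (SD, n = 6 mice), rank 212 of 21154 genes, and *Itgb1*, the β chain shared by α1, α5 and α6, averaged 306 ± 97.3, rank 328. *Ilk* followed at 276 ± 70.8, but 90.3% of its exon length overlaps *Taf10* and *Rrp8* on the opposite strand, and counting was not by strand, so its level is uncertain. A middle group held *Itga6* (71.1 ± 11.6), *Tln1* (60.6 ± 17.5), *Itga5* (59.4 ± 31.8) and *Itga1* (54.5 ± 11.4). *Ptk2* averaged 25.0 ± 9.32, *Itgb3* 5.36 ± 7.84 and *Itgav* 3.10 ± 1.98. With the length of the longest transcript, *Ptk2* averaged 47.9 and *Itga1* 82.3, against 55.5 for *Tln1* and 56.1 for *Itga5*. The gap between *Ptk2* and the middle group thus depends on the length used.

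Of the neighbors in this order, only *Ilk* and *Itga6* had ranges over the 6 mice that did not overlap. The difference of means exceeded the SD of either gene also for *Fn1* and *Itgb1*, *Itga1* and *Ptk2*, and *Ptk2* and *Itgb3*, and in the other pairs it did not. *Fn1* exceeded *Itgb1* in 5 of 6 mice, with a mean ratio of 1.62 ± 0.63 (range 0.955 to 2.81) that became 2.64 with the length of the longest transcript, and the exception was TDP-43iΔEC mouse 2. *Itga1* exceeded *Ptk2*, and *Ptk2* exceeded *Itgb3*, within each of the 6 mice, whereas *Itgb3* exceeded *Itgav* in only 2 of 6.

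**Figure D1:**
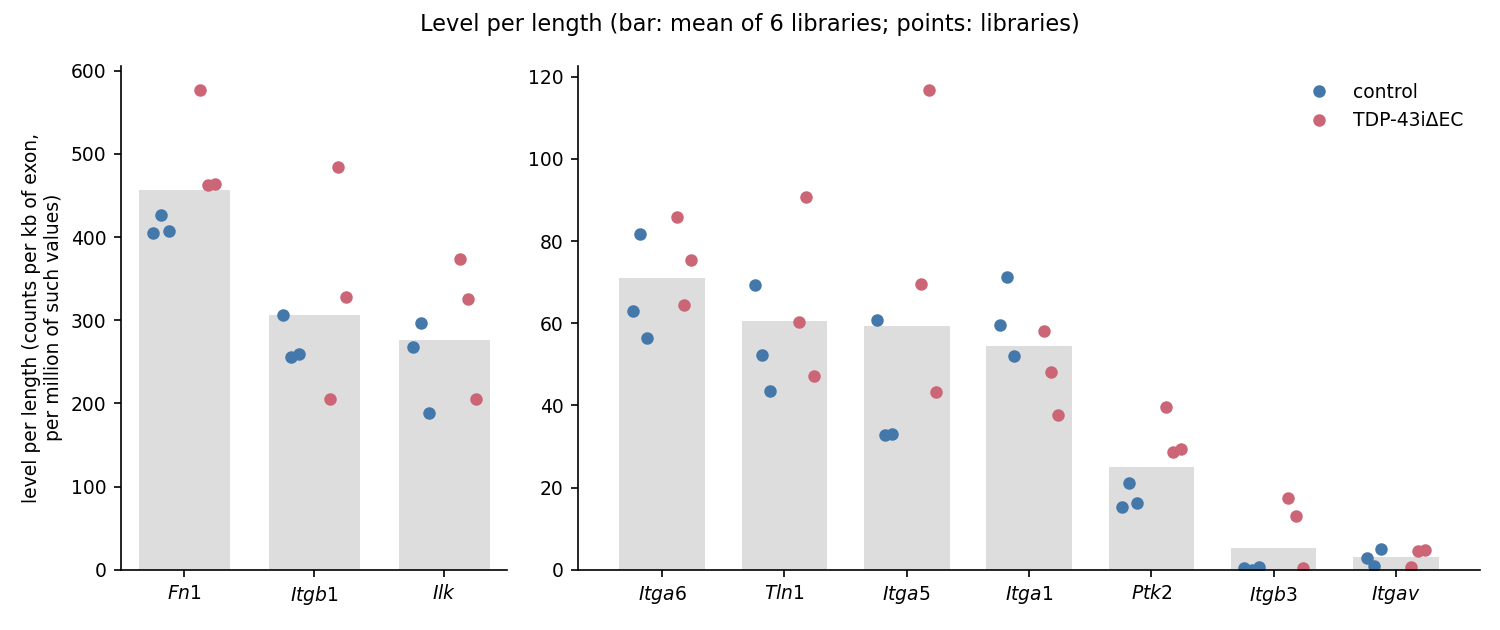
Level of the 10 genes (counts per kb of exon, scaled to the same total in every library), with grey bars for the mean of 6 mice and 1 point per mouse. The 3 most abundant genes are drawn on a wider axis than the other 7, both axes start at 0, and *Fn1* spans 405 to 577 while *Itgav* spans 0.720 to 4.92.

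*Fn1* RNA, at a high level in every library, did not differ between groups by more than the spread between mice. The gene lies at chr1:71624673-71692419 (GRCm39, minus strand), and 2.71% of its exon length overlaps *Apol7d* on the opposite strand. It was at 69236, 87449 and 79784 normalized counts in control and at 93590, 71517 and 87890 in TDP-43iΔEC mice. The groups overlapped in part, with TDP-43iΔEC mice 1 and 3 above all control mice and mouse 2 below control mice 2 and 3. The log2 fold change was 0.07 (SE 0.13, limma adjusted p = 0.884), and its 95% interval ran from 0.855-fold to 1.29-fold. On the scale per kb, which has no correction for composition, *Fn1* was 405 to 426 in control and 463 to 577 in TDP-43iΔEC mice without overlap. When libraries were instead scaled by total count only, a further scale, the median of all genes itself moved to a log2 fold change of 0.18, and that of *Fn1* was 0.26, or 0.08 above the median. In bulk samples such as these, fewer cells of a type and less RNA per cell cannot be told apart. The p values set the difference between groups against the spread between libraries within a group.

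**Figure D2:**
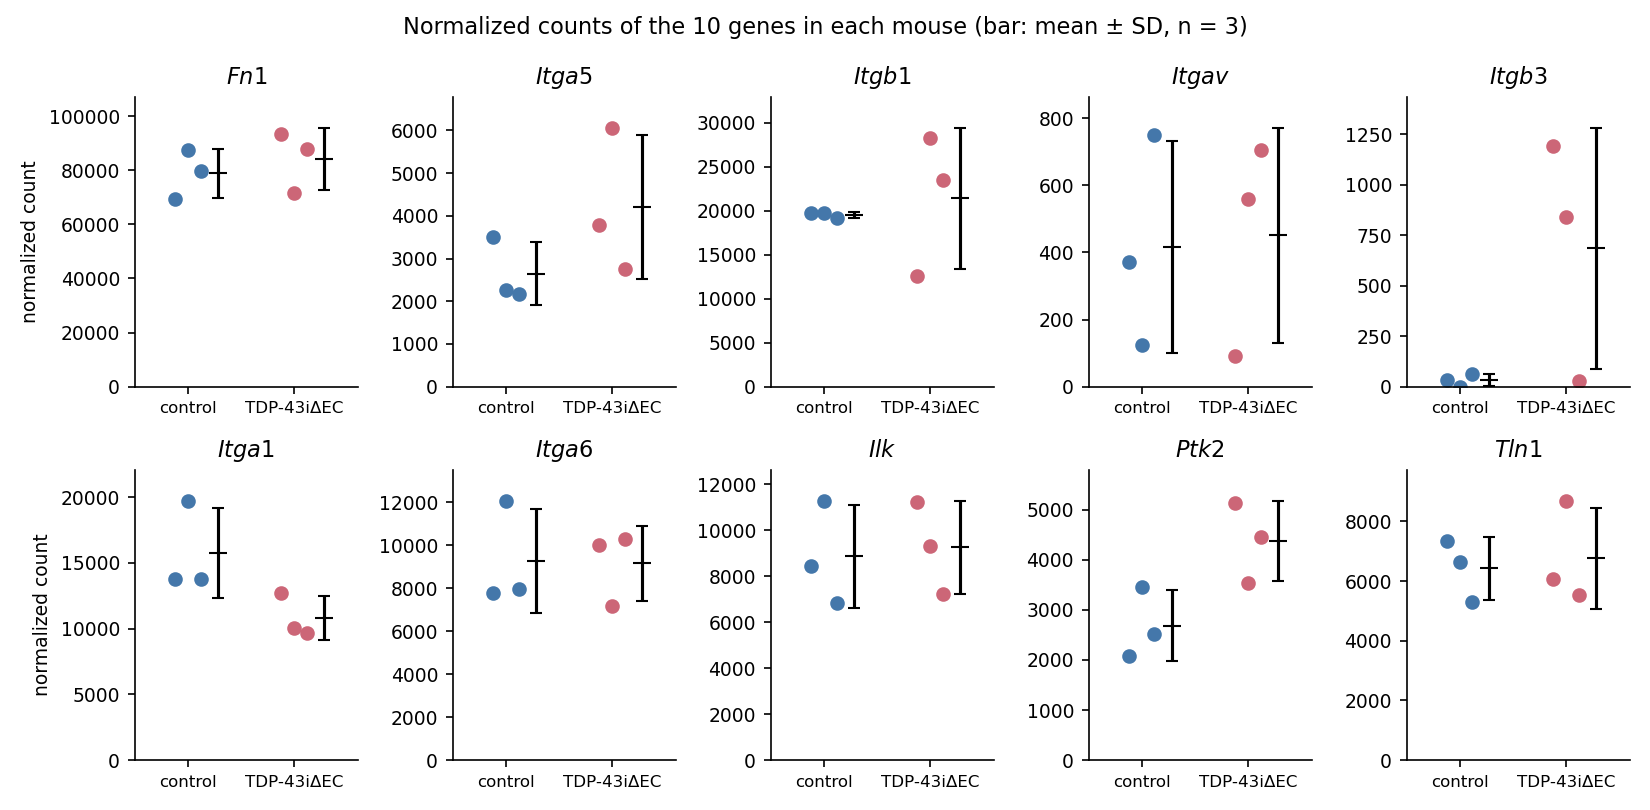
Normalized counts of the 10 genes, with 1 panel per gene, 1 point per mouse, and bars for mean ± SD (n = 3 per group), all axes starting at 0. The groups are separated for *Itga1*, lower in TDP-43iΔEC mice, and for *Ptk2*, higher in TDP-43iΔEC mice, and overlap for the other 8 genes.

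*Itgb1* encodes β1, the partner of α5, α1 and, alongside β4, of α6. It lies at chr8:129411876-129460618 (plus strand). It was at 19763, 19737 and 19137 normalized counts in control and at 12544, 28234 and 23429 in TDP-43iΔEC mice. The control mice were nearly equal (SD 354), while the TDP-43iΔEC mice lay on both sides of them (SD 8039), with mouse 1 below and mice 2 and 3 above every control mouse. The fold change was centered near no difference (log2 −0.05, SE 0.27, limma adjusted p = 0.967), and its 95% interval was 0.630-fold to 1.48-fold. The difference in spread was not tested. In proportion, *Itgb1* supplied 96.9% to 100.0% of the summed level per kb of the 8 β chain genes in control mice and 92.1% to 99.9% in TDP-43iΔEC mice.

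*Itgb3*, the β chain of the fibronectin and vitronectin receptor αvβ3, which platelets carry as αIIbβ3, was the most variable of the 10 genes. It lies at chr11:104498826-104561302 (plus strand). In control mice, *Itgb3* had 42, 0 and 75 counts, or 34.9, 0 and 60.9 normalized counts. In TDP-43iΔEC mice, it had 1571, 706 and 19 counts, or 1191, 842 and 27.0 normalized counts. Mice 1 and 2 of the TDP-43iΔEC group stood far above the other 4 mice, and mouse 3 lay within the control range, so the groups overlapped. A count of 0 in control mouse 2 allows up to 2.67 normalized counts. The fitted log2 fold change of 5.57 (SE 2.82, 95% interval −0.82 to 11.96) depends on how that 0 is treated and did not pass the test (limma adjusted p = 0.570, DESeq2 adjusted p = 0.179). Leaving out 1 mouse at a time gave 3.20 to 6.90. As a share of β chain level, *Itgb3* reached 0.278% at most in control and 7.89% in TDP-43iΔEC mouse 1. The 5 platelet markers summed to 1.37 to 5.27 CPM in control mice and to 0.0667, 1.66 and 4.94 CPM in TDP-43iΔEC mice 1, 2 and 3. *Gp6* was at 0 in all 6 mice, and *Gp9* and *Ppbp* were at 0 in all TDP-43iΔEC mice and in some control mice. *Itga2b*, the platelet partner of β3, was at 31.2 to 203 normalized counts in control mice and at 14.4, 199 and 122 in TDP-43iΔEC mice 1, 2 and 3. Thus, of the mice with high *Itgb3*, mouse 1 had the lowest and mouse 2 nearly the highest *Itga2b*, and the part of platelets in the *Itgb3* counts was not tested.

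Of the α chains among the 10 genes that bind fibronectin, *Itga5* was well detected and *Itgav* was low. *Itga5* (chr15:103252713-103275270, minus strand) encodes α5 of the main fibronectin receptor. It was at 3496, 2257 and 2180 normalized counts in control and at 3793, 6067 and 2764 in TDP-43iΔEC mice. TDP-43iΔEC mice 1 and 2 lay above all controls, but mouse 3 lay below control mouse 1. The log2 fold change was 0.60 (SE 0.34, 95% interval −0.16 to 1.36, limma adjusted p = 0.595), positive in all 15 alternative fits. *Itgav* (chr2:83554403-83637260, plus strand), the αv chain, was at 370, 124 and 751 normalized counts in control and 91.0, 558 and 705 in TDP-43iΔEC mice. Both groups spanned several-fold, and the 95% interval of its log2 fold change (−0.58, SE 1.05, limma adjusted p = 0.880) ran from −2.95 to 1.79. Its direction was not settled, since edgeR gave 0.068, DESeq2 0.12 and leaving out 1 mouse −1.14 to 0.86, positive without control mouse 3 or TDP-43iΔEC mouse 1.

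*Itga1*, the α chain of the collagen receptor α1β1, was the only one of the 10 genes whose TDP-43iΔEC mice all lay below all control mice. It lies at chr13:115089632-115238677 (minus strand). It was at 13765, 19696 and 13762 normalized counts in control and at 12709, 10045 and 9656 in TDP-43iΔEC mice. The groups did not overlap, but the gap between the lowest control and the highest TDP-43iΔEC mouse was small, and control mouse 2 stood above the others. The log2 fold change was −0.54 (SE 0.20, 95% interval −0.99 to −0.09), and the gene did not pass the threshold (limma adjusted p = 0.471, exact permutation test, two-sided, p = 0.1, the smallest value that 3 against 3 mice can give). Without adjustment p was 0.0236 (limma). On the scale per kb, the groups overlapped, at 52.1 to 71.3 in control and 37.8 to 58.1 in TDP-43iΔEC mice. Over the 15 alternatives the log2 fold change stayed between −0.70 and −0.31, with adjusted p values of 0.329 to 0.736. Of its exon length, 14.1% overlaps other genes, among them *Mocs2*, and 27.0% of its main transcript is shared with transcripts of other genes, so part of its counts may belong to these.

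*Itga6* (chr2:71575960-71689757, plus strand), the laminin-binding α6 chain abundant in CNS ECs, did not separate the groups. It was at 7752, 12047 and 7957 normalized counts in control and at 10003, 7154 and 10280 in TDP-43iΔEC mice. The highest value was in a control mouse and the lowest in a TDP-43iΔEC mouse (log2 fold change −0.03, SE 0.23, 95% interval −0.56 to 0.49, limma adjusted p = 0.977).

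The makeup of the α chains was then described as each gene's share of the summed level per kb of 18 α chain genes. The share of *Itga1* was 25.9% to 32.1% in control and 17.3% to 20.6% in TDP-43iΔEC mice, without overlap. *Itga4*, the α chain of the receptor for VCAM-1 and fibronectin α4β1, had 3.97% to 9.63% in control and 9.79% to 12.8% in TDP-43iΔEC mice, also without overlap, although 20.8% of its exon length overlaps *Cerkl*. *Itga5* supplied 20.1% ± 5.85 in control and 29.6% ± 10.8 (SD, n = 3) in TDP-43iΔEC mice, with overlap. *Itga6* had the highest mean share in both groups, 32.3% ± 4.78 and 30.7% ± 7.67, but in TDP-43iΔEC mouse 2 it supplied 23.1% and *Itga5* 41.9%. *Itgav* supplied 1.47% ± 1.27 and 1.45% ± 1.11. Shares sum to the whole, so a higher share of 1 chain lowers those of the others, and no test was made on them.

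**Figure D3:**
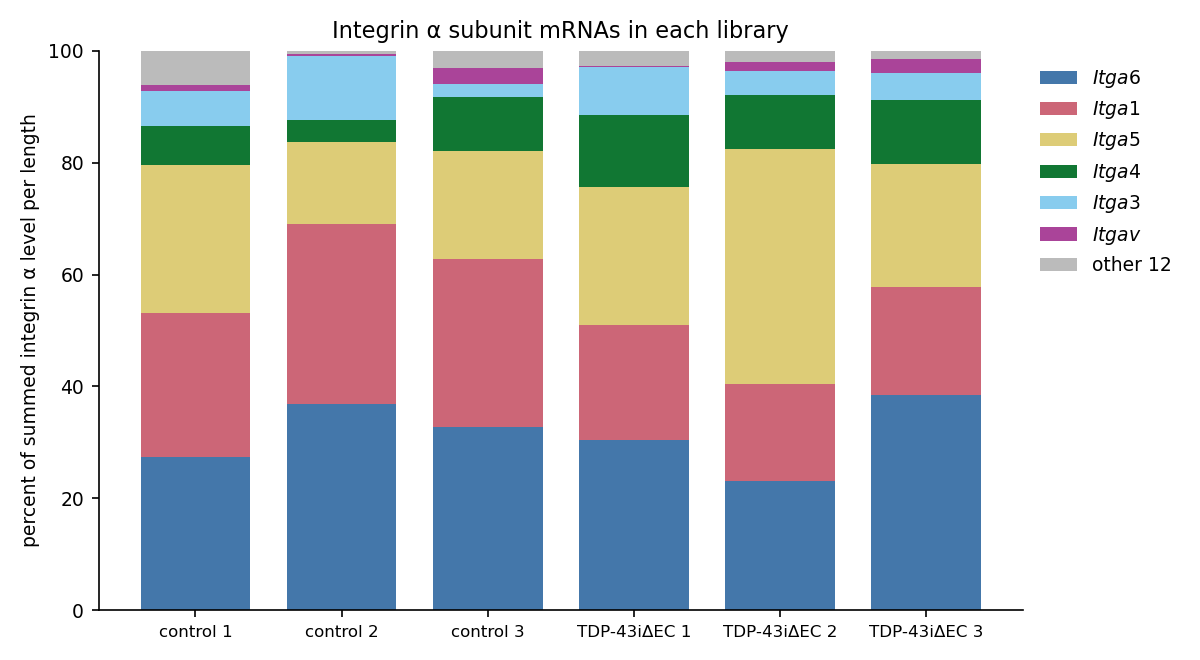
Stacked bars of the share (%) of each α chain gene in the summed level per kb of 18 α chain genes, with 1 bar per mouse and 12 minor genes drawn together. The *Itga1* segment is smaller in the 3 TDP-43iΔEC mice (17.3% to 20.6%) than in the 3 control mice (25.9% to 32.1%), and the *Itga4* segment is larger.

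Among the cytoplasmic partners, *Ptk2* separated the groups. *Ptk2* (chr15:73076832-73295129, minus strand) encodes FAK, the tyrosine kinase recruited to clustered integrins. It was at 2077, 3454 and 2527 normalized counts in control and at 5126, 3541 and 4455 in TDP-43iΔEC mice. Every TDP-43iΔEC mouse lay above every control mouse, though mouse 2 of the TDP-43iΔEC group only just exceeded control mouse 2. The log2 fold change was 0.71 (SE 0.27), or 1.63-fold with a 95% interval of 1.06 to 2.51. *Ptk2* did not pass the threshold (limma adjusted p = 0.489, unadjusted p = 0.0291). The exact permutation test gave p = 0.1. Over the 15 alternatives the log2 fold change stayed between 0.54 and 0.95, with adjusted p values of 0.347 to 0.799.

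*Ilk* and *Tln1* did not separate the groups. *Ilk* (chr7:105385782-105392182, plus strand) was at 8466, 11268 and 6852 normalized counts in control and at 11235, 9297 and 7222 in TDP-43iΔEC mice (log2 fold change 0.07, SE 0.24, limma adjusted p = 0.940), with its overlap with *Taf10* and *Rrp8* as above. *Tln1* (chr4:43531513-43562691, minus strand) was at 7355, 6649 and 5285 in control and at 6063, 8681 and 5533 in TDP-43iΔEC mice (log2 fold change 0.02, SE 0.23, limma adjusted p = 0.990). The *Ilk* values of TDP-43iΔEC mice all lay within the control range, and for *Tln1* only TDP-43iΔEC mouse 2 lay outside it, above. The 95% intervals were 0.725-fold to 1.53-fold for *Ilk* and 0.705-fold to 1.45-fold for *Tln1*.

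Counted together, all 10 genes passed the filter on low counts and 0 passed the threshold of an adjusted p of 0.05 in limma, where 0.137% of all tested genes did. At an unadjusted p under 0.05, 2 of 10 passed, compared with 9.27% of all tested genes. These were *Ptk2*, higher (4.26% of all genes), and *Itga1*, lower (5.0% of all genes). Each of the 2 stayed under an unadjusted p of 0.05 in only 10 of the 15 alternative fits. By edgeR, 0 passed adjusted, as did 0% of all tested genes, and 2 passed unadjusted (6.47% of all genes). By DESeq2, 0 passed adjusted (1.88% of all genes did) and 3 unadjusted (8.49%), the third being *Itgb3*. Groups did not overlap in 2 of the 10 genes (1 higher, 1 lower), against 15.0% of all genes (7.93% higher, 7.10% lower). With only 10 genes, 1 gene in each direction is close to these background shares and is no result about the genes as a group. The median log2 fold change of the 10 genes was 0.04 and that of all tested genes −0.02.

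**Figure D4:**
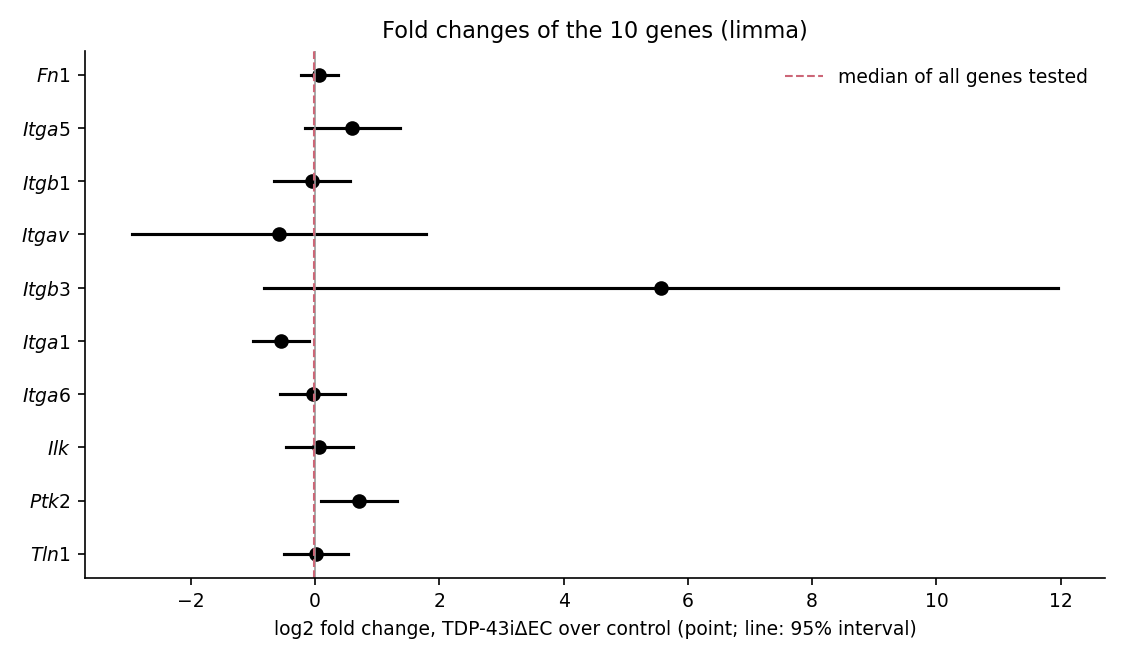
Log2 fold change (TDP-43iΔEC over control, limma) of the 10 genes, with points for the estimate, lines for the 95% interval and a dashed line at the median of all tested genes. Only the intervals of *Ptk2* (0.09 to 1.33) and *Itga1* (−0.99 to −0.09) leave out 0, both before adjustment for the 13107 genes tested, and that of *Itgb3* is the widest (−0.82 to 11.96).

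The wider adhesion pathway was read from 3 lists of 81 genes in all: 20 other integrin subunits, 39 focal adhesion adaptors and kinases, and 22 matrix ligands and fibronectin assembly genes. Of these, 66 were tested and 0 passed the threshold in limma, where 0.137% of all tested genes did. At an unadjusted p under 0.05, 6 were higher (4.26% of all tested genes were) and 3 lower (5.0%). By edgeR 0 passed, as did 0% of all tested genes, and 7 passed unadjusted (6.47% of all genes). By DESeq2 3 passed (1.88% of all genes did): *Vcam1*, *Nedd9* and *Plaur*, all higher, and 7 passed unadjusted (8.49% of all genes). The lists were chosen with earlier results of these data known, so these shares are a description and no independent test. The median log2 fold change over the 66 genes was −0.03. Groups did not overlap in 7 higher genes (7.93% of all genes) and 1 lower gene (7.10%).

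The other integrin subunits were mostly low or absent. Of the 20, 10 were tested and 5 had no count in any library (*Itgb6*, *Itgam*, *Itgax*, *Itga11* and *Itgae*), the αM and αX chains of macrophages among them. *Itga4* had the highest mean over all mice, at 21.2 ± 9.55 per kb (SD, n = 6). In control mice alone it averaged 13.9, against 14.6 for *Itga3*. *Itga4* was at 2938, 1908 and 3445 normalized counts in control and at 6170, 4454 and 4479 in TDP-43iΔEC mice. Its groups thus did not overlap (log2 fold change 0.88, SE 0.29, limma adjusted p = 0.429). By rule, the next genes were *Itga7*, *Itga2* and *Itgb4*, each at 0 or near 0 in several mice, with adjusted p values of 0.785 to 0.837 (limma). The median log2 fold change of the 10 tested subunits was −0.37.

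Of the 39 adaptors and kinases, 35 were tested and 3 were at 0 in all libraries (*Apbb1ip*, *Fermt1* and *Ptk2b*, the FAK homolog Pyk2). *Nedd9*, a scaffold that FAK phosphorylates, was at 936, 636 and 706 normalized counts in control and at 4301, 1727 and 2725 in TDP-43iΔEC mice. All TDP-43iΔEC mice exceeded all controls (log2 fold change 1.90, SE 0.48, limma adjusted p = 0.287, DESeq2 adjusted p = 0.00291). *Rap1a*, a small GTPase that activates integrins through talin, was at 1010 to 1643 in control and 2275 to 2969 in TDP-43iΔEC mice (log2 fold change 0.93, SE 0.30, limma adjusted p = 0.420). *Dock1*, a Rac exchange factor downstream of FAK, was at 1577 to 3363 and 3817 to 4830 (0.83, SE 0.30, limma adjusted p = 0.471). *Parvb*, which encodes the ILK-binding adaptor β-parvin, was at 2593 to 3729 in control and 1134 to 2787 in TDP-43iΔEC mice, with overlap (−1.09, SE 0.36, limma adjusted p = 0.430). Chosen after their values were seen, the other genes at an unadjusted p under 0.05 or without overlap were *Vcl* (lower, overlapping), *Vasp* (higher) and *Rsu1* (lower). *Lims2*, which encodes PINCH-2, the partner of ILK, was the most abundant of the list at 270.1 per kb.

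Among the 22 matrix and assembly genes, 21 were tested. *Vcam1*, an endothelial ligand of α4β1, was at 225, 325 and 597 normalized counts in control and at 2448, 2062 and 1243 in TDP-43iΔEC mice. The lowest TDP-43iΔEC mouse was above the highest control (log2 fold change 2.42, SE 0.58, limma adjusted p = 0.271, DESeq2 adjusted p = 0.00398). *Plaur*, the urokinase receptor, which binds vitronectin and associates with integrins, was at 543 to 2145 in control and 3718 to 6389 in TDP-43iΔEC mice (1.84, SE 0.48, limma adjusted p = 0.296, DESeq2 adjusted p = 0.0456). With 1 mouse left out, the log2 fold change of *Plaur* was 1.21 to 2.21. *Lama5*, the laminin α5 chain of mature vessels, was at 4774 to 8837 and 2286 to 5038 with overlap (−0.89, SE 0.34, limma adjusted p = 0.488). *Sdc2*, a syndecan that takes part in fibronectin assembly, was at 543 to 812 in control and at 14.4, 820.5 and 616 in TDP-43iΔEC mice, where mouse 1 alone was low (−2.64, SE 1.27, limma adjusted p = 0.558). That value depends on the mouse and the method, at −0.53 by edgeR, −0.49 by DESeq2 and −3.43 to 0.06 with 1 mouse left out. *Ccn1*, an integrin ligand, had the highest level per kb of the list (1021 ± 114, SD, n = 6) and a log2 fold change of −0.05 (SE 0.15, limma adjusted p = 0.938).

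**Figure D5:**
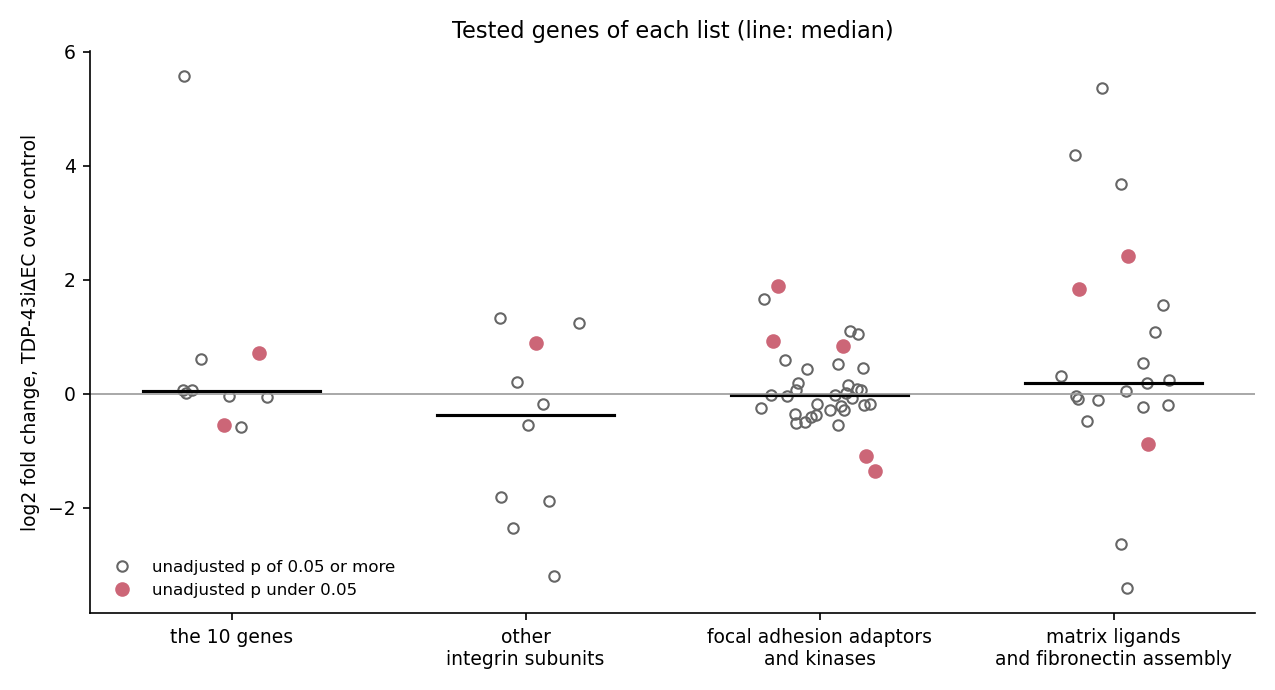
Log2 fold changes (TDP-43iΔEC over control, limma) of the tested genes, with 1 point per gene for the 10 genes and each of the 3 pathway lists, filled where the unadjusted p was under 0.05, and a line at the median. The medians are 0.04, −0.37, −0.03 and 0.18 from left to right, and no gene passed an adjusted p of 0.05.

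Genes whose pattern over the 6 mice was most like that of *Fn1* were ranked by Pearson r of log2 CPM. This CPM was also divided by the TMM factor of each library, and the ranking covered the 7377 genes with a mean of at least 500 normalized counts. The most alike were *Bmi1* (r = 0.980), *Polr2d* (0.980), *Clk4* (0.978), *Meox1* (0.968) and *BC005537* (0.968). All 5 followed *Fn1* in being highest in TDP-43iΔEC mouse 1. The 6 points share their libraries and depth, and the ranking is a description over many genes with no test.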

How the data were processed

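RNA-Seq libraries of sorted spinal cord ECs were prepared by the authors with SMARTseq2, aligned to GRCm39 with STAR 2.7.8a (GENCODE M30) and quantified with RSEM 1.3.0. The deposited values are estimated counts per gene, neither scaled nor filtered, and 0 were not whole. The protocol used no stated molecular identifiers, and PCR duplicates are therefore part of the counts. The counts were fitted over the whole table in R 4.3.3 with limma 3.58.1 (voom), using TMM factors and the default filterByExpr filter from edgeR 4.0.16, with Benjamini-Hochberg adjustment and a threshold of 0.05. Normalized counts were divided by size factors of DESeq2 1.42.0. Gene models came from GENCODE M39 (98.7% of identifiers matched), and levels per kb used the union of exons. The exact permutation tests were two-sided. The code was tested on simulated data.

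The members and lists were chosen with earlier results of these data known. The rule for genes named outside the 10 was *Tardbp*, in each list the 4 lowest unadjusted p values and the highest level per kb, cell type markers at 0, and the 5 genes most like *Fn1*. Chosen after their values were seen were *Vcl*, *Vasp*, *Rsu1*, *Itga2b*, *Itga3*, *Flt1*, *Gfap*, *Gja1*, *Rbfox3*, *Syt1*, *Col1a1*, *Col1a2*, *Dcn* and the list genes at 0. Marker lists were summed, and of the 9 those of fibroblasts, neurons, microglia, oligodendrocytes and platelets overlapped between control and TDP-43iΔEC mice. Fibroblast sums were 35.4 to 40.8 against 12.8 to 43.9 CPM, and neuron sums 3.11 to 9.40 against 0.933 to 3.29. Microglia sums were 0 to 1.80 against 0.244 to 8.44, oligodendrocyte sums 288 to 546 against 15.7 to 497, and platelet sums 1.37 to 5.27 against 0.0667 to 4.94. *Lum* and *Pdgfra* were at 0 in all TDP-43iΔEC mice and in control mouse 2. *Map2*, *Nefl* and *Snap25* were at 0 in all TDP-43iΔEC mice, *Map2* also in control mice 1 and 3 and *Nefl* in control mouse 2. In contrast, *Rbfox3* was at 0 to 0.0108 per kb in control and 0.137 to 0.414 in TDP-43iΔEC mice, and *Syt1* was counted only in TDP-43iΔEC mouse 2. Mean levels per kb were higher in TDP-43iΔEC mice for *Col1a1* and *Col1a2* and lower for *Dcn*, all with overlap. Alternatives were edgeR's quasi-likelihood and DESeq2's Wald test, sample quality weights, other scalings and filters, a replicate block, another threshold, another gene length and leaving out each mouse.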

Additional observations from a re-analysis of the deposited data

How the results depend on the processing

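The number of the 10 genes past the threshold was 0 in every fit tried. Among all tested genes the count of 18 became 0 by edgeR, 247 by DESeq2, 10 with scaling by library size, 1 with scaling to EC markers, 76 without a filter, 39 with at least 10 counts in every library and 31 at an adjusted p under 0.1. It ranged from 0 to 13 with 1 mouse left out (0 without TDP-43iΔEC mouse 1, 2 without TDP-43iΔEC mouse 3, 3 without control mouse 1, 3 without TDP-43iΔEC mouse 2 and 10 without control mouse 2). Of the pathway lists, 3 genes passed by DESeq2. Same-numbered mice did not deviate together (r = −0.07, −0.13 and −0.02), and 0 of 6 libraries correlated best with their own number. These values give no sign that the numbers pair mice, but so few mice cannot exclude it. With a replicate block, 22 of all genes and 0 of the 10 passed. *Itgb3*, *Itga5*, *Itga1* and *Ptk2* kept their direction wherever fitted, and *Itgb3* could not be fitted with at least 10 counts per library. The sign of 6 genes' log2 fold changes turned in some fits. *Itgb1* was 0.092 by edgeR, 0.13 by DESeq2, 0.091 with quality weights, 0.14 with library size, 0.21 with EC markers and 0.027 with the block. *Itgav* was 0.068 by edgeR and 0.12 by DESeq2. *Itga6* was 0.055 with quality weights, 0.0082 with DESeq2 size factors, 0.16 with library size and 0.20 with EC markers, and *Tln1* −0.0026 without a filter. These 3 scalings moved the median of all genes to 0.02, 0.18 and 0.23, and relative to it *Itgb1* (−0.038 to −0.013) and *Itga6* (−0.023 to −0.014) stayed negative in each. With 1 mouse left out, log2 fold changes ran from −0.035 to 0.18 for *Fn1* (negative without control 1 or TDP-43iΔEC 1), −0.31 to 0.36 for *Itgb1*, −1.14 to 0.86 for *Itgav*, −0.14 to 0.14 for *Itga6*, −0.11 to 0.23 for *Ilk* and −0.16 to 0.12 for *Tln1*. *Fn1* over *Itgb1* was 2.64 with the longest transcript's length, and *Itga1* then exceeded *Tln1* and *Itga5* in mean level. On that length *Ptk2* averaged 47.9. The causes were not tested. *Tardbp* passed by DESeq2 only (log2 fold change −1.65). A count of 0 in 1 library limits *Itgb3*.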
